A study of Mus musculus with 9 samples.

Results

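The RNA and the H3K4me3 peaks of 5 genes, Runx1, Runx2, Runx3, Cbfb and Cbfa2t3, were followed through eosinophil development in mouse bone marrow. They were taken by gene symbol and are 5 of the 23471 genes in the RNA tables, with 20 of the 30396 RefSeq transcripts listed there. The cells came from the bone marrow of Balb/c mice, pooled, with no treatment. GMP, granulocyte-macrophage progenitors, were gated as Lin- and CD34+ with high c-kit and CD16/32. EoP, eosinophil progenitors, were Lin- and CD34+ too, but with low c-kit and with CD125, the interleukin-5 receptor alpha chain. Eos, mature eosinophils, were gated on Siglec-F and CCR3. Each stage had 2 RNA libraries, given as independent sorts, and 1 H3K4me3 library. Whether those sorts drew on separate animals is not stated, so a p-value here speaks of the spread between libraries. The age of the mice is not stated either.

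RUNX proteins are the DNA-binding subunits of core-binding factor, and CBFB is the partner subunit, which does not touch DNA itself but makes RUNX binding tighter and more stable. RUNX1 is required for blood stem cells to arise and acts in myeloid and megakaryocyte development, RUNX2 is best known as the master regulator of osteoblasts, and RUNX3 as a regulator of cytotoxic T cells and other lymphocytes. Each RUNX gene is known to be transcribed from a distal and a proximal promoter, which give proteins with different amino termini. CBFA2T3, also called ETO2, is a co-repressor of the ETO family that sits on TAL1, LMO2, LDB1 and GATA complexes, and its relative ETO is known for its leukaemia fusion with RUNX1. H3K4me3 is a histone mark found around the starts of genes that are active or poised.

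The promoter windows below are shown because the long H3K4me3 peaks described further on lay at the distal start in Runx1 but at or after the proximal one in Runx2 and Runx3. Each runs from 250 bases before to 50 after a start of the RefSeq table (build GRCm38.p6), and capitals mark the RUNX motif, TGTGGT or its reverse complement ACCACA, searched on both strands. The windows are Runx1 distal at chr16:92826025-92826324 (minus strand), Runx1 proximal at chr16:92697280-92697579 (minus), Runx2 distal at chr17:44814578-44814877 (minus), Runx3 distal at chr4:135120395-135120694 (plus) and Runx3 proximal at chr4:135152295-135152594 (plus). The proximal Runx2 promoter is not shown.
Runx1 distal: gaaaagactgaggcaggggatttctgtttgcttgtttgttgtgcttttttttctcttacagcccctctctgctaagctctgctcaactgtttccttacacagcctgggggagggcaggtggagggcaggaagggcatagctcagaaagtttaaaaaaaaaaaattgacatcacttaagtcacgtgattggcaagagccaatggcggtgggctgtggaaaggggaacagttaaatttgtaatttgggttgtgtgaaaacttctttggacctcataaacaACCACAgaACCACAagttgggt
Runx1 proximal: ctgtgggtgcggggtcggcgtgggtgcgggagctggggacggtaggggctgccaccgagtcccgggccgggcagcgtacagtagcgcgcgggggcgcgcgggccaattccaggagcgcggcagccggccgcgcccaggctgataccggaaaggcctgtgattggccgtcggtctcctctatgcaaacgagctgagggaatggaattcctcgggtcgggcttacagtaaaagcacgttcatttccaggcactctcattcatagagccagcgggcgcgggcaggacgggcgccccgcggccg
Runx2 distal: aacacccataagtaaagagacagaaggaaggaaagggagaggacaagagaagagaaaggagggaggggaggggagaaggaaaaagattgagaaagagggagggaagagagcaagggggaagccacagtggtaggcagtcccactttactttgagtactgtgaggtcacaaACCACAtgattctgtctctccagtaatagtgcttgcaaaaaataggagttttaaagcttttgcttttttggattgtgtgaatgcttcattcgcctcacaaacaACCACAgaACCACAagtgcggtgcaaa
Runx3 distal: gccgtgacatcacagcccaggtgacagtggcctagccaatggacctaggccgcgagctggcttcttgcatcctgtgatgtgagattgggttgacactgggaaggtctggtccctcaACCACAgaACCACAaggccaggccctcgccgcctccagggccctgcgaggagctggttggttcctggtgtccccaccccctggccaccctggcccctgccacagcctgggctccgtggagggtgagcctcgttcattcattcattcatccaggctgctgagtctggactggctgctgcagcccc
Runx3 proximal: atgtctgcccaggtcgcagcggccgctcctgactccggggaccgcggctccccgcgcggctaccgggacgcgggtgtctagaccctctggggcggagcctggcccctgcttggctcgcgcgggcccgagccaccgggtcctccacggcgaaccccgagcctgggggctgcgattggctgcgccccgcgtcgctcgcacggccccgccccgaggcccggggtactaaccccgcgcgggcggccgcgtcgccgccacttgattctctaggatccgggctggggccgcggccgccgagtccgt

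The RUNX motif stood 2 times in the distal window of Runx1, 3 times in that of Runx2 and 2 times in that of Runx3. It was not found in the proximal windows of Runx1 and Runx3, in the Cbfb window or in either Cbfa2t3 window. Of 32851 promoter windows of the same length, 16.8% held the motif and 1.81% held it 2 or more times. All 3 distal windows shared a run of 18 bases with 2 copies of the motif, shown here because it is common to them.
shared run: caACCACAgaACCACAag
With the RefSeq start base counted as position 1, the run began at position 27 for Runx1, 22 for Runx2 and −136 for Runx3. It was in 4 of the 32851 windows, and the other one, of Gm16225, covers the same bases as the Runx3 window. The distal windows of Runx1 and Runx2 had 2 CpG dinucleotides each and a GC content of 45.0% and 45.3%. The distal Runx3 window had 8 CpG at 63.7% GC. The proximal Runx1 window had 35 CpG at 69.0% GC, and the proximal Runx3 window 45 CpG at 77.3% GC. The GATA motif AGATAA was in none of the 8 windows of the 5 genes, against 11.2% of all windows. The motif GAGGAAG, bound by PU.1, was found 2 times in the Cbfb window and 2 times in the distal Cbfa2t3 window, against 13.6% of all windows with at least 1. These matches describe letters in a window and show no binding.

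Library sizes ran from 5226653 to 12088134 estimated counts, with the GMP libraries the shallowest, and each member had between 388 and 2850 counts in every library. The Pearson correlation of log2 CPM, the counts of a gene relative to the TMM-scaled library size, between the 2 libraries reached 0.975 for GMP, 0.98 for EoP and 0.975 for Eos. Of the sort gate genes, Il5ra (CD125) had 2.18 and 1.79 CPM in GMP, 436 and 399 in EoP and 619 and 1180 in Eos, and Ccr3 had 1.57 and 0.894 in GMP, 21.3 and 34.5 in EoP and 2270 and 2970 in Eos. The 10 eosinophil markers summed to 1240 and 318 CPM in GMP, 242000 and 193000 in EoP and 21300 and 25100 in Eos, and the granule genes Epx, Prg2, Prg3, Ear1, Ear2 and Ear6 were all lower in both Eos libraries than in both EoP libraries. Markers of other cells also differed between stages. The 8 GMP markers summed to 43000 and 40200 CPM in GMP, 2720 and 3310 in EoP and 15300 and 5170 in Eos. The summed level of 10 neutrophil genes was 574 to 1950 CPM in GMP, 266 to 619 in EoP and 41500 to 48100 in Eos, with none of the 10 at 0 in Eos. All of the Eos results below stand beside these differences, and their part in them was not tested. In bulk RNA, fewer cells of a type and less RNA per cell cannot be told apart.

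Runx1 was the member that fell furthest. Its level was 211 and 218 CPM in GMP, 155 and 229 CPM in EoP, and 86.5 and 45.4 CPM in Eos. The EoP libraries lay on both sides of the GMP libraries, and both Eos libraries were below all 4 others. In Eos, Runx1 was 2.91-fold lower than in EoP (log2 fold change −1.54, SE 0.32, Benjamini-Hochberg adjusted p = 0.00476 by edgeR's quasi-likelihood test). Against GMP it was 3.25-fold lower in Eos (−1.70, SE 0.32, edgeR adjusted p = 0.00215). The drop held in each of the 21 alternative fits for both comparisons. When each library was left out in turn, the log2 fold change ran from −2.09 to −1.15 against EoP and from −2.23 to −1.28 against GMP. Between EoP and GMP, Runx1 did not pass the test (−0.16, SE 0.31, edgeR adjusted p = 0.751). The change at the later step minus that at the earlier one was −1.38 (SE 0.53, edgeR adjusted p = 0.0888), and it passed in 4 of 20 alternative fits: without Eos replicate 1 (−1.96, edgeR adjusted p = 0.00232), with no filter (−1.45, 0.00824), with the crossed replicate block (−1.36, 0.0486) and by limma on log2(RPKM + 1) (−1.79, 0.042).

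Runx2 was the RUNX gene with its highest level in Eos. It had 140 and 145 CPM in GMP, 137 and 171 CPM in EoP, and 200 and 295 CPM in Eos. GMP and EoP libraries overlapped, and both Eos libraries were above all of them, though far apart from each other. The level in Eos was 1.74-fold that in GMP (log2 fold change 0.80, SE 0.25, edgeR adjusted p = 0.0208). The difference from EoP missed the threshold (0.68, SE 0.25, edgeR adjusted p = 0.0529), and EoP against GMP gave 0.12 (SE 0.25, adjusted p = 0.768). The call against GMP was lost in 9 of 21 alternative fits. Among them were the fits that left out GMP replicate 1 (edgeR adjusted p = 0.124), GMP replicate 2 (0.0663) and Eos replicate 2 (0.069). The call against EoP was gained in 7 of 21, one of them without Eos replicate 1. The log2 fold change against EoP was 0.92 without Eos replicate 1 and 0.37 without Eos replicate 2. It was 0.51 and 0.88 without EoP replicate 1 and 2. On the RPKM scale Eos (11.6 and 13.6 RPKM) overlapped EoP (9.71 and 13.3), and limma on log2(RPKM + 0.5) gave 0.14, which did not pass.

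Runx3 passed none of the tests of the edgeR model. It had 83.3 and 94.0 CPM in GMP, 93.9 and 82.5 CPM in EoP, and 62.4 and 69.1 CPM in Eos. GMP and EoP overlapped, and the Eos libraries were the lowest of the 6. The log2 fold change in Eos was −0.42 (SE 0.21, edgeR adjusted p = 0.137) against EoP and −0.43 (SE 0.21, adjusted p = 0.103) against GMP, and it was −0.01 (SE 0.21, adjusted p = 0.983) for EoP against GMP. T and NK cell genes, the cells in which RUNX3 is best known, summed over 13 genes to 18.8 to 21.3 CPM in GMP, 5.54 to 6.51 in EoP and 39.5 to 46.9 in Eos, with 5 of them at 0 in EoP and 1 in Eos. Cd3d alone had 26.2 and 34.4 CPM in Eos, and without it the other 12 summed to 17.9 and 16.7 CPM in GMP, 1.42 and 5.66 in EoP and 13.3 and 12.5 in Eos. Runx3 was called lower in Eos in 4 of 21 alternative fits against EoP, all of them on the RPKM scale, and in 6 of 21 against GMP, the same 4 settings and those with upper quartile factors (−0.66, edgeR adjusted p = 0.0213) and library size alone (−1.02, 0.00384). The step difference of Runx3 was −0.42 (SE 0.36, edgeR adjusted p = 0.438), and passed in 4 of 20 alternative fits, again those on the RPKM scale (−1.14 by limma on log2(RPKM + 0.5), adjusted p = 0.029).

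Cbfb, the shared partner subunit, was highest in EoP. It had 157 and 139 CPM in GMP, 206 and 244 CPM in EoP, and 153 and 138 CPM in Eos. Both EoP libraries were above all 4 others, and GMP and Eos overlapped. Eos was 1.54-fold lower than EoP (log2 fold change −0.63, SE 0.21, edgeR adjusted p = 0.0419), while EoP against GMP missed the threshold (0.60, SE 0.21, edgeR adjusted p = 0.061). Eos and GMP differed by −0.02 (SE 0.21, edgeR adjusted p = 0.931), a value that passed in 1 of 21 alternative fits, with library size alone (−0.60, edgeR adjusted p = 0.0464). The change at the later step minus that at the earlier one was −1.23 (SE 0.36, edgeR adjusted p = 0.0391), in a test of whether the steps differ that uses the EoP libraries in both. The difference between EoP and GMP was called in 10 of 21 alternative fits. Of these, 2 left out an Eos library, which is not among the libraries compared (0.63 without either one). The fits that left out a compared library did not pass. Their log2 fold change was 0.70 and 0.67 without GMP replicate 1 and 2, and 0.75 and 0.65 without EoP replicate 1 and 2. The fall of Cbfb was lost in 9 of 21 alternative fits. It did not pass in 5 of the 6 fits that left out a library. The log2 fold change stayed at −0.63 and −0.62 without GMP replicate 1 and 2, which are not among the libraries compared. It was −0.76 and −0.47 without EoP replicate 1 and 2, and −0.55 without Eos replicate 2. The difference between steps was lost in 9 of 20, with edgeR adjusted p = 0.109 and 0.111 without GMP replicate 1 and 2 and 0.138 and 0.232 without EoP replicate 1 and 2.

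Cbfa2t3, the ETO-family co-repressor, was the member that rose furthest. It had 63.7 and 72.3 CPM in GMP, 134 and 150 CPM in EoP, and 168 and 229 CPM in Eos. The 3 stages did not overlap, with GMP lowest and Eos highest. EoP was 2.09-fold above GMP (log2 fold change 1.07, SE 0.23, edgeR adjusted p = 0.0103), and Eos was 2.93-fold above GMP (1.55, SE 0.23, edgeR adjusted p = 0.000632). Eos against EoP did not pass (0.48, SE 0.23, edgeR adjusted p = 0.12), and passed in 1 of 21 alternative fits, without Eos replicate 1. The log2 fold change was 0.67 in that fit and 0.24 without Eos replicate 2. The step difference was −0.58 (SE 0.39, edgeR adjusted p = 0.307), and passed in 4 of 20 alternative fits, all on the RPKM scale (−1.27 by limma on log2(RPKM + 0.5), adjusted p = 0.0278). The rise in Eos over GMP held in all 21 alternative fits, with a log2 fold change of 1.34 to 1.80 when a library was left out. The rise at the first step was lost without GMP replicate 1 (0.99, edgeR adjusted p = 0.115), without GMP replicate 2 (1.31, 0.0529) and with library size alone as the scaling (0.60, 0.0656).

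**Figure D1:**
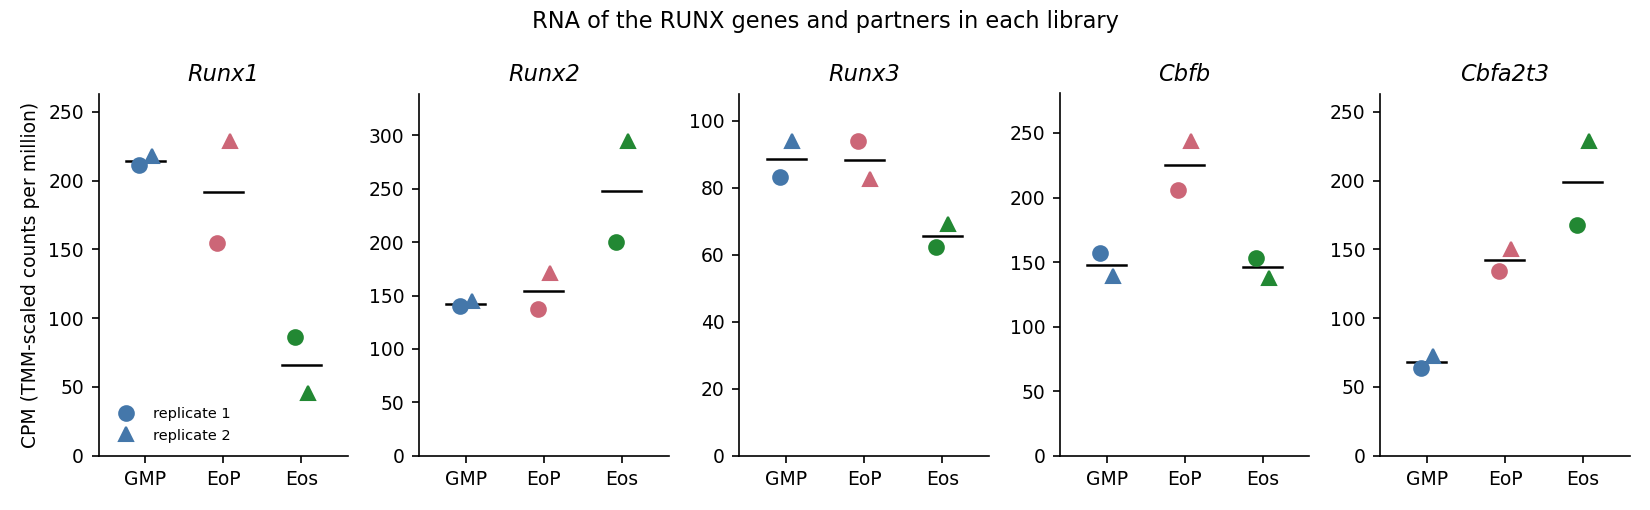
TMM-scaled CPM of each member (vertical axis) in the 2 libraries of GMP, EoP and Eos (circle, replicate 1; triangle, replicate 2). Runx1 was lowest in Eos (86.5 and 45.4 CPM), Cbfb highest in EoP (206 and 244 CPM), and Cbfa2t3 did not overlap between stages.

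The share of members called was close to that of all genes in each comparison. For EoP against GMP, 1 of the 5 members was called, Cbfa2t3, where 26.6% of the 14324 genes tested were. For Eos against EoP, 2 of 5 were called, Runx1 and Cbfb, against 36.8% of genes. For Eos against GMP, 3 of 5 were called, Runx1, Runx2 and Cbfa2t3, against 54.5%. For the difference between the steps, 1 of 5 was called, Cbfb, on the lower side, against 19.8% of genes in all, 8.5% lower and 11.3% higher. The libraries of EoP and GMP stood apart for 2 members, Cbfb and Cbfa2t3, as they did for 70% of genes. Those of Eos and EoP stood apart for all 5, against 70.8% of genes, and those of Eos and GMP for all but Cbfb, against 83% of genes. The comparisons share libraries and are not independent of each other.

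**Figure D2:**
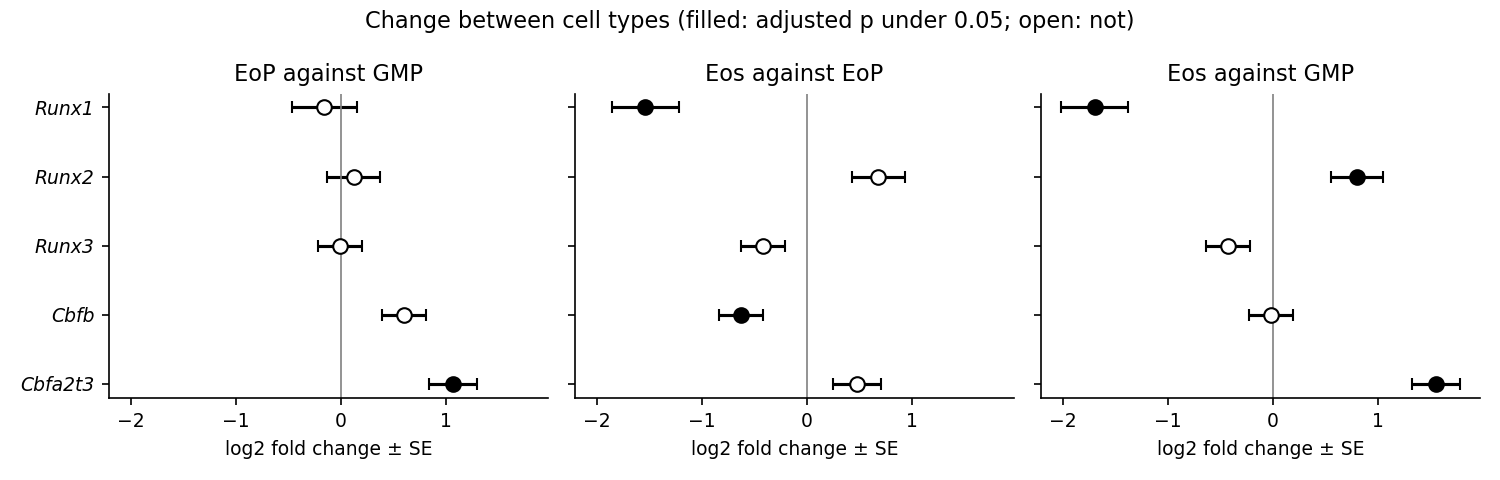
Log2 fold change ± SE (horizontal axis) of the 5 members for EoP against GMP, Eos against EoP and Eos against GMP, from the edgeR fit of the 6 libraries. Filled points passed an adjusted p of 0.05: Cbfa2t3 at 1.07 in the first panel, Runx1 at −1.54 and Cbfb at −0.63 in the second, and Runx1 at −1.70, Runx2 at 0.80 and Cbfa2t3 at 1.55 in the third.

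Levels between genes were compared per transcript length, with the authors' RPKM summed over the transcripts of a gene. In GMP the order was Cbfb (19.4 and 16.4 RPKM), Runx1 (11.6 and 12.0), Runx2 (8.63 and 8.60), Runx3 (7.40 and 8.06) and Cbfa2t3 (2.88 and 3.16), with no overlap between neighbours. In EoP it was Cbfb (29.5 and 37.8 RPKM), Runx1 (9.91 and 15.4), Runx2 (9.71 and 13.3), Runx3 (9.67 and 9.27) and Cbfa2t3 (7.04 and 8.60), and there Runx1 and Runx2 overlapped. In Eos it was Cbfb (17.9 and 13.2 RPKM), Runx2 (11.6 and 13.6), Cbfa2t3 (7.15 and 8.01), Runx3 (5.21 and 4.74) and Runx1 (4.65 and 1.92), and Cbfb and Runx2 overlapped. Runx1 was thus the second of the 5 in GMP and the last in Eos. The Runx2 sums include NR_073392, a non-coding record by its prefix, and the order without it was not worked out. On this scale both Eos libraries lay between the EoP libraries for Cbfa2t3, and limma on log2(RPKM + 0.5) gave −0.04 for Eos against EoP.

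The make-up of the RUNX family is a ratio within a library, which no scaling between libraries alters. Runx1 held 42.0% and 41.8% of the summed RUNX RPKM in GMP, 33.8% and 40.6% in EoP, and 21.7% and 9.48% in Eos. Runx2 held 31.2% and 30.1% in GMP, 33.1% and 35% in EoP, and 54.0% and 67.1% in Eos. Runx1 was thus the larger share in GMP and Runx2 in Eos, with Runx3 between 23.4% and 33.0% throughout. The Runx2 sum includes NR_073392, a non-coding record by its prefix. That record had 4.51 and 4.11 RPKM in GMP, 3.9 and 7.13 in EoP, and 5.45 and 2.05 in Eos. Shares and ratios without it were not worked out. The ratio of Runx2 to Runx1 RPKM was 0.744 and 0.719 in GMP, 0.979 and 0.86 in EoP, and 2.49 and 7.08 in Eos, so the Eos libraries were both above 1 but differed from each other. The summed RUNX level was 27.6 and 28.6 RPKM in GMP, 29.3 and 38.0 in EoP, and 21.4 and 20.2 in Eos. Cbfb per unit of summed RUNX RPKM was 0.703 and 0.574 in GMP, 1.01 and 0.996 in EoP, and 0.835 and 0.651 in Eos, highest in both EoP libraries. The ratio of Cbfa2t3 to Runx1 RPKM was 0.248 and 0.264 in GMP, 0.71 and 0.557 in EoP, and 1.54 and 4.18 in Eos, with no overlap between stages. These ratios were not tested.

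**Figure D3:**
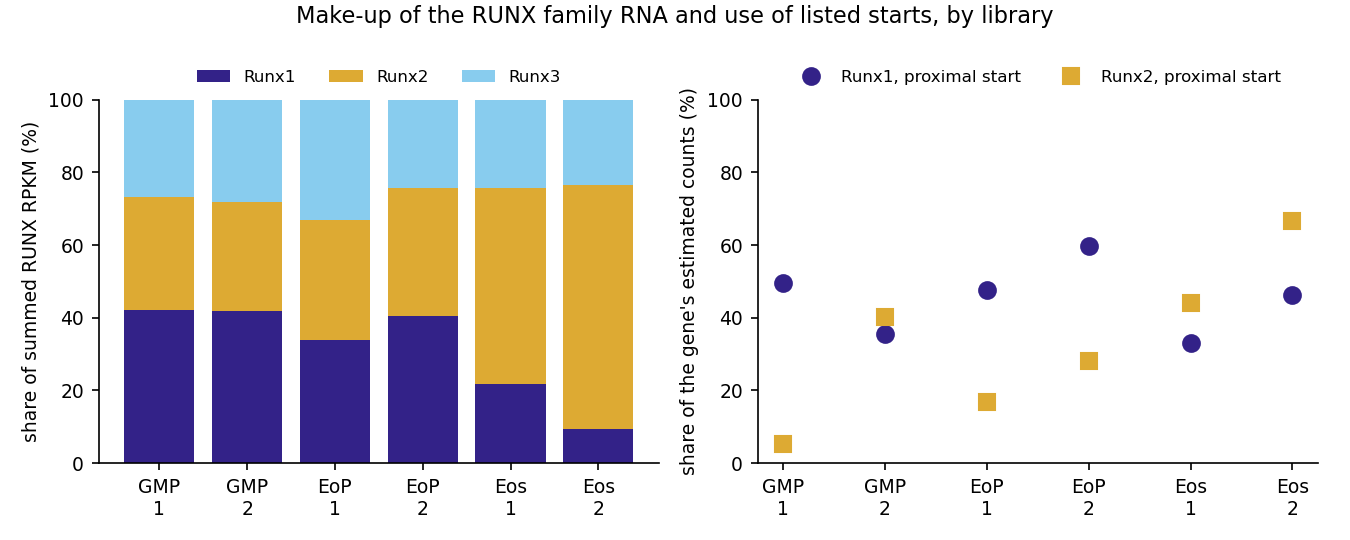
Left, share of the summed RUNX RPKM held by Runx1, Runx2 and Runx3 (percent, stacked) in each of the 6 libraries. Right, share of the estimated counts of Runx1 and of Runx2 from transcripts with a proximal start (percent), 5.29% to 40.1% for Runx2 in GMP and 44.0% and 66.5% in Eos.

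The tables list paired starts for Runx1, 128738 bases apart, for Runx2, 77979 bases apart, and for Cbfa2t3, 20934 bases apart. Transcripts from the proximal Runx1 start held 49.7% and 35.4% of the gene's estimated counts in GMP, 47.6% and 59.7% in EoP, and 33.0% and 46.4% in Eos, with all stages overlapping. For Runx2 the proximal share was 5.29% and 40.1% in GMP, 16.9% and 28.1% in EoP, and 44.0% and 66.5% in Eos. Both Eos libraries were above all others, but the GMP libraries were wide apart. All counts of Cbfa2t3 went to NM_009824, the transcript of the distal start, and both transcripts of its proximal start were listed at 0 in every library. How the authors split reads between isoforms is not stated, and the split was uneven between replicates: NM_001271627 of Runx2 had 61.3 and 6.59 CPM in GMP, and NM_009821 of Runx1 had 14.1 and 0 CPM in Eos.

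Of the 20 member transcripts, 16 were tested among 17467. In EoP against GMP, edgeR called 0 of them, where 2.64% of transcripts were called. At an unadjusted p under 0.05 there was 1, and DESeq2 and limma-voom called 1 each. In Eos against EoP, 2 were called against a background of 14.8%, both of Runx1: NM_001111023 of the proximal start (log2 fold change −2.26, SE 0.49, edgeR adjusted p = 0.0419) and NM_001111021 of the distal start (−1.33, SE 0.26, edgeR adjusted p = 0.0334). NM_001111023 had 14.5 and 20.7 CPM in Eos, against 51.1 and 118 CPM in EoP. NM_001111021 had 27.8 and 24.0 CPM in Eos, against 53.2 and 77.3 CPM in EoP, so a transcript of each start was lower with no overlap. For Eos against GMP, 2 were called against 26.7%, NM_001111021 (−1.25, SE 0.26, edgeR adjusted p = 0.0269) and NM_009824 of Cbfa2t3 (1.53, SE 0.21, edgeR adjusted p = 0.0105). Leaving out 1 library ended most of these calls. NM_001111023 was lost without each of the 6 libraries, with edgeR adjusted p from 0.0779 without GMP replicate 2 to 0.152 without EoP replicate 2. NM_001111021 was also lost against EoP without each of the 6 (0.0533 without Eos replicate 1 to 0.155 without EoP replicate 2). Against GMP it was lost without all but EoP replicate 1, up to 0.151 without GMP replicate 2. NM_009824 was lost without GMP replicate 1 (0.0601) and without GMP replicate 2 (0.0531).

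H3K4me3 peaks were listed at or near a start of each of the 5 genes, though not at every start. The authors' peak lists hold 27 peaks annotated to the 5 genes in GMP, 14 in EoP and 22 in Eos, of which 13, 8 and 8 were promoter peaks. The lists differ in length, at 30645, 19816 and 33847 peaks, and each comes from 1 library. Fold and length are given by the authors for each peak and are read here only within a list. All 5 members had a promoter peak in GMP, where 45.1% of genes did. In EoP 4 of 5 did, against 37.4% of genes, and in Eos 4 of 5, against 39.6%. Runx3 was the member without one in EoP and Eos.

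The distal Runx1 start carried the longer peak in every list. It spanned 1457 bases in GMP, 1477 in EoP and 1051 in Eos, beginning 98 to 214 bases after the listed start, with a fold enrichment of 7.18, 6.81 and 7.39. That was longer than 98.7%, 99.8% and 94.8% of the promoter peaks of the GMP, EoP and Eos lists. Around the proximal Runx1 start, peaks of 446 and 92 bases were listed in GMP, of 305 and 163 bases in EoP and of 761 bases in Eos. So Runx1 was marked at both starts in each list, including Eos, where its RNA was lowest.

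Runx2 was marked the other way round. Its proximal start lay in or beside peaks of 1962 bases in GMP, of 1374 and 355 bases in EoP and of 1995 bases in Eos, longer than 99.9%, 99.6% and 100% of promoter peaks in their lists for the longest one of each. At the distal Runx2 start only GMP had a peak, of 119 bases with a fold of 3.89 and −log10 q of 2.47. The transcripts assigned to that distal start still held 94.7% and 59.9% of the Runx2 counts in GMP, 83.1% and 71.8% in EoP, and 56.0% and 33.5% in Eos. NR_073392, a non-coding record by its prefix, was one of them, with 72.3 and 68.0 CPM in GMP, 53.5 and 89.6 in EoP and 92.2 and 41.5 in Eos.

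For Runx3 the RNA tables list 1 transcript, from the distal start. A peak lay on that start in GMP alone, of 347 bases with a fold of 7.99 and −log10 q of 9.67, beside one of 109 bases. In all 3 lists the long Runx3 peak was farther into the gene, annotated to an exon: 1285 bases in GMP, 1186 in EoP and 994 in Eos, with a fold of 8.20, 7.91 and 8.69. It began 198, 269 and 250 bases after the proximal RefSeq start, the one whose CpG-rich window is printed above as Runx3 proximal. This exon peak is not a promoter peak by the authors' annotation. Under another rule, a peak within 1000 bases of a listed or RefSeq start, all 5 members had one in every list. That rule was not planned beforehand, and the share of all genes that meet it was not worked out. A separate intergenic peak annotated to Runx3 lay at −157008, −157115 and −157055 bases from the distal start in GMP, EoP and Eos, of 395, 282 and 336 bases, with a fold of 9.44, 11.2 and 6.22.

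Cbfb had a pair of peaks after its start in every list, of 641 and 608 bases in GMP, 384 and 440 in EoP and 578 and 457 in Eos, plus one of 150 bases before it in GMP. Their highest fold stood at 12.4 for GMP, 7.94 for EoP and 9.53 for Eos. Cbfa2t3 was marked over its distal start, by 1615 bases in GMP, 1597 in EoP and 1053 and 494 in Eos. Near its proximal start there were peaks of 354 and 122 bases in GMP and of 326 bases in Eos, and none in EoP. Of the 13 member promoter peaks in GMP, 6 overlapped a peak in both other lists by at least 1 base, where 65% of all 20109 GMP promoter peaks did.

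**Figure D4:**
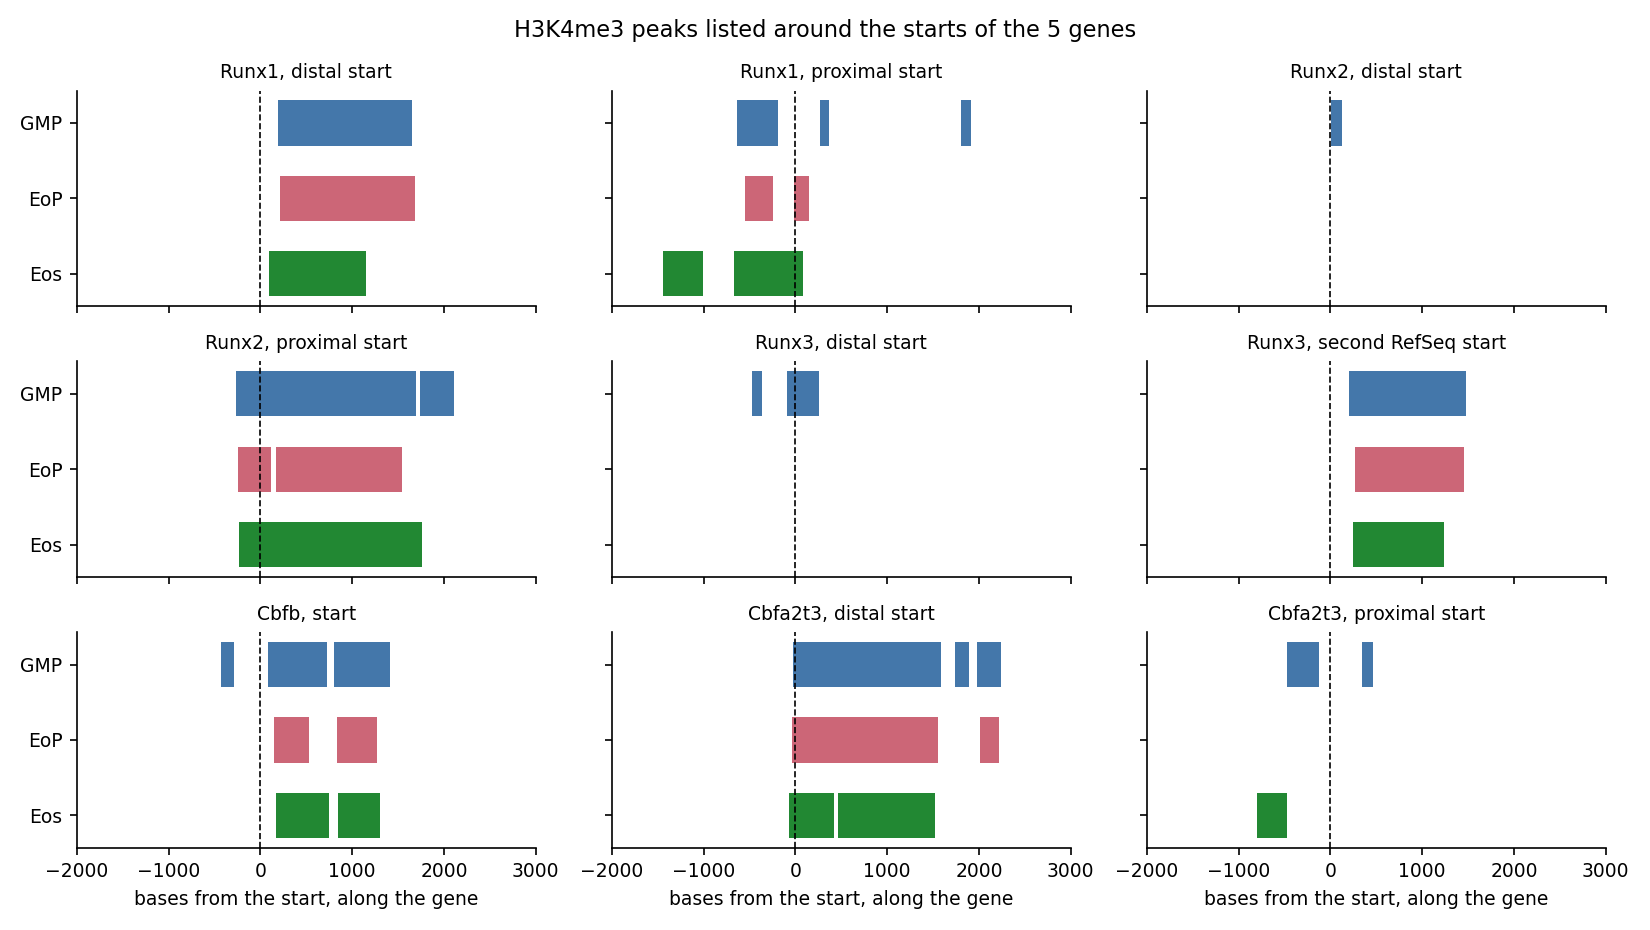
Position of the listed H3K4me3 peaks relative to each start (horizontal axis, bases along the direction of transcription, start at 0) in GMP, EoP and Eos, 1 library each; a bar is a peak's extent. The long bars sit at the distal start of Runx1 and Cbfa2t3 but at the proximal start of Runx2 and the second RefSeq start of Runx3.

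Co-regulators that bind or modify core-binding factor were followed as a list of 29, of which 28 were tested. In EoP against GMP, 1 rose and 5 fell, against 9.49% and 17.1% of all genes, with a median log2 fold change of 0.08 beside −0.07 over all genes. Hipk2, a kinase that phosphorylates RUNX1, had 253 and 299 CPM in EoP, against 92.3 and 97.4 in GMP (1.54, SE 0.21, edgeR adjusted p = 0.00126). In Eos against EoP, 10 rose and 6 fell, against 19.1% and 17.7% of genes (median 0.21 beside 0.02). Tle3, a Groucho co-repressor, had 136 and 214 CPM in Eos, against 40.9 and 35.1 in EoP (2.20, SE 0.31, edgeR adjusted p = 0.000662), and Ep300, an acetyltransferase and co-activator, had 765 and 1230 CPM in Eos, against 339 and 386 in EoP (1.46, SE 0.28, edgeR adjusted p = 0.00323). Hipk2 fell, with 106 and 102 CPM in Eos (−1.41, SE 0.21, edgeR adjusted p = 0.000947). For Eos against GMP, 9 rose and 8 fell, against 22.7% and 31.8% of genes (median −0.13 beside −0.39). Prmt1, an arginine methyltransferase that modifies RUNX1, had 21.4 and 9.47 CPM in Eos, against 83.5 and 86.4 in GMP (−2.45, SE 0.34, edgeR adjusted p = 0.000406). The counts moved when a library was left out, as did those over all genes, which fell for EoP against GMP without either GMP library. Each such fit leaves 1 library in a stage, so a lost call need not mean that a single library carried it. The 5 that were lower in EoP than in GMP became 1 and 0 without GMP replicate 1 and 2 and 1 without either EoP library, and the 1 that was higher became 4 without Eos replicate 1 and 3 without Eos replicate 2. The 10 higher in Eos than in EoP became 2 and 5 without EoP replicate 1 and 2, and the 6 lower became 3 without either. The 8 lower in Eos than in GMP became 4 and 3 without GMP replicate 1 and 2.

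The 19 genes of the complexes in which Cbfa2t3 works were all tested. In EoP against GMP, 3 rose and 1 fell, against 9.49% and 17.1% of all genes, with a median log2 fold change of 0.01 beside −0.07. In Eos, 4 rose and 3 fell against EoP, beside 19.1% and 17.7% of genes (median −0.27 beside 0.02), and 4 rose and 5 fell against GMP, beside 22.7% and 31.8% (median −0.16 beside −0.39). Gata1, the GATA factor of erythroid, megakaryocyte and eosinophil cells, had 69.6 and 60.3 CPM in EoP, against 4.24 and 5.36 in GMP (3.76, SE 0.29, edgeR adjusted p = 5.72e-05), and stayed at 64.8 and 90 CPM in Eos. Gfi1b, a zinc-finger repressor, had 43.0 and 25.9 CPM in EoP, against 0.363 and 6.41 in GMP (3.4, SE 0.73, edgeR adjusted p = 0.00993). Gata2, the stem and progenitor cell GATA factor, had 19.3 and 7.83 CPM in Eos, against 46.3 and 147 in EoP (−2.83, SE 0.55, edgeR adjusted p = 0.00362). The 8 basophil and mast cell genes summed to 104 and 43.5 CPM in Eos, against 929 and 3860 in EoP and 1080 and 1090 in GMP, higher in the same EoP library as Gata2, and their part in this was not tested. Tal1, the bHLH factor of the complex, had 14.5 and 12.6 CPM in Eos, against 45.4 and 42.8 in GMP (−1.70, SE 0.28, edgeR adjusted p = 0.000976). The counts again moved with the libraries. The 1 lower in EoP than in GMP became 0 without either GMP or either EoP library and 3 without Eos replicate 1 or 2. The 4 higher in Eos than in EoP became 1 without EoP replicate 1 or 2, and the 3 lower became 7 without Eos replicate 1. The 4 higher in Eos than in GMP became 2 without GMP replicate 1, and the 5 lower became 2 without either GMP library or Eos replicate 2.

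Of 28 genes known as RUNX targets in blood cells, 22 were tested. Between EoP and GMP, 1 rose and 9 fell in EoP, against 9.49% and 17.1% of all genes, with a median log2 fold change of −1.01 beside −0.07 over all genes. Gzmb, for granzyme B, fell furthest, with 0.708 and 0.943 CPM in EoP, against 12.7 and 71.1 in GMP (−5.62, SE 0.86, edgeR adjusted p = 0.00229). Elane, for neutrophil elastase, had 151 and 135 CPM in EoP, against 6490 and 5690 in GMP (−5.41, SE 0.60, edgeR adjusted p = 0.00039), and Mpo, for myeloperoxidase, had 1920 and 2380 CPM in EoP, against 29900 and 28300 in GMP (−3.76, SE 0.56, edgeR adjusted p = 0.00206). Elane, Mpo, Prtn3 and Ctsg are also on the list of GMP markers. In Eos, 10 rose and 2 fell against EoP, beside 19.1% and 17.7% of genes (median 0.52 beside 0.02). Csf1r, the receptor for macrophage colony-stimulating factor, had 172 and 352 CPM in Eos, against 4.72 and 14.1 in EoP (4.77, SE 0.51, edgeR adjusted p = 0.000167). Itgal, the alpha chain of the integrin LFA-1, had 463 and 866 CPM in Eos, against 27.8 and 59.7 in EoP (3.92, SE 0.42, edgeR adjusted p = 0.000164). Elane was higher again, with 2170 and 587 CPM in Eos (3.26, SE 0.54, edgeR adjusted p = 0.00165). The 8 GMP markers, Elane among them, summed to 15300 and 5170 CPM in those Eos libraries. Their sum was higher in the library in which Elane was higher. The neutrophil genes summed to 41500 and 48100, of which Retnlg alone had 20600 and 35200. Mmp8 and Mmp9 were also higher in Eos replicate 2. The other neutrophil genes were higher in Eos replicate 1, as Elane was, S100a9 for instance with 8730 and 4390 CPM. The 9 monocyte, macrophage and dendritic cell genes other than Csf1r summed to 224 and 135 CPM in Eos, against 151 and 174 in EoP, which overlapped. Of these, Ms4a6c was lower in Eos (11.1 and 5.85 CPM, against 89.2 and 92.7 in EoP). Ly6c2 (117 and 64.9 CPM, against 13.2 and 14), Ccr2 and Cx3cr1 were higher in both Eos libraries than in both EoP libraries. The others overlapped. The part of the GMP, neutrophil and monocyte markers in these values was not tested. For Eos against GMP, 6 rose and 8 fell, beside 22.7% and 31.8% of genes (median −0.89 beside −0.39). The 1 higher in EoP than in GMP became 0 without GMP replicate 1 and 2 without EoP replicate 1, Eos replicate 1 or Eos replicate 2. The 10 higher in Eos than in EoP became 6 without EoP replicate 1, the 2 lower became 1 without either EoP library or Eos replicate 2, and the 8 lower in Eos than in GMP became 5 without GMP replicate 2.

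**Figure D5:**
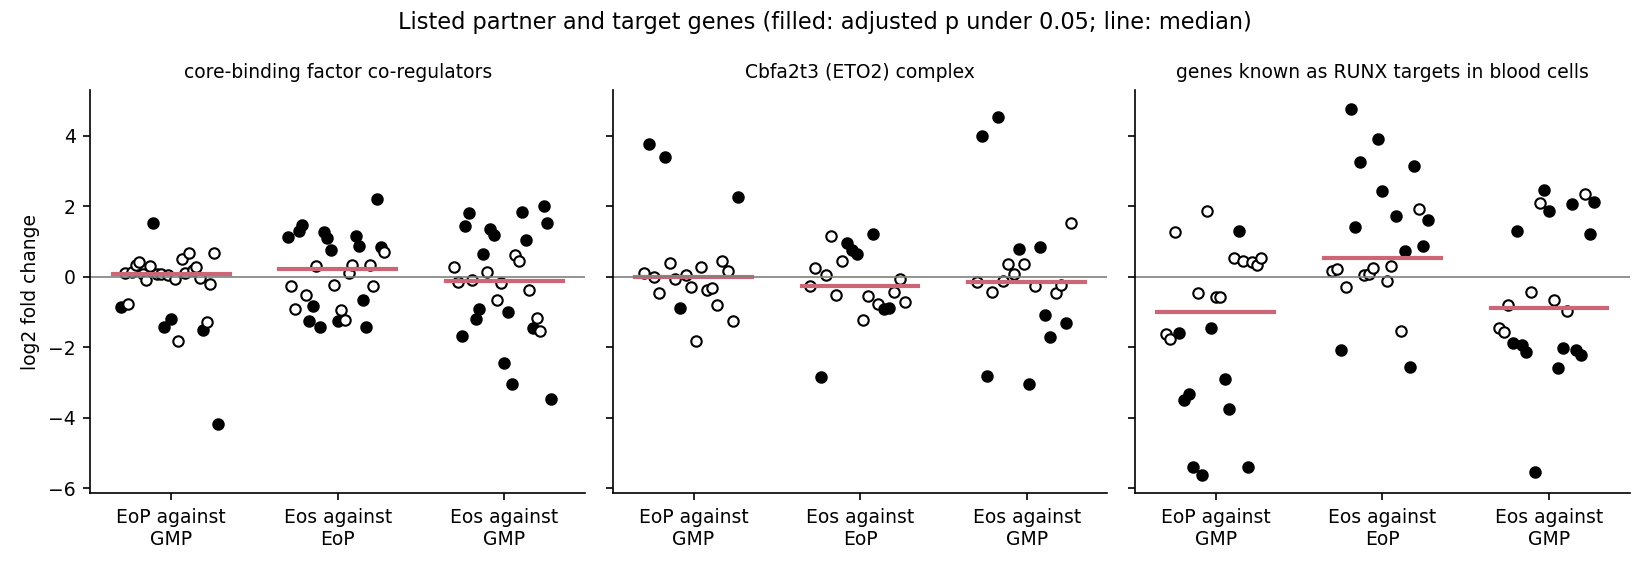
Log2 fold change (vertical axis) of each tested gene of the co-regulator list (28), the Cbfa2t3 complex list (19) and the blood RUNX target list (22) in the 3 comparisons; filled points passed an adjusted p of 0.05 and the line is the list's median. The target list has its median at −1.01 for EoP against GMP and 0.52 for Eos against EoP.

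Few bone genes known as RUNX2 targets were detected: of 10 listed, 4 had enough counts to be tested. Between EoP and GMP, edgeR called 0 of the 4, with 0 at an unadjusted p under 0.05 and 0 called by DESeq2 and by limma-voom. In Eos, 1 rose and 1 fell against EoP, and the same against GMP, a share of the 4 near the background of 36.8% and 54.5% of genes. Col10a1, a cartilage collagen gene, had 19.0 and 15.4 CPM in Eos, 1.89 and 5.14 in EoP and 1.57 and 1.49 in GMP (Eos against EoP 2.26, SE 0.50, edgeR adjusted p = 0.0067). The other was Ibsp, for bone sialoprotein, with 0 CPM in both Eos libraries, 0.472 and 0.6 CPM in EoP and 1.21 and 1.49 CPM in GMP. Both were named after their values were seen. Ibsp was called in none of the 6 fits that left out a library for Eos against EoP, and against GMP it was lost without GMP replicate 1 and without GMP replicate 2. The summed level of 9 osteoblast and stromal genes was 17.5 to 23.4 CPM in GMP, 24.1 in both EoP libraries and 7.02 to 8.94 CPM in Eos, of which Pdgfrb had 11.4 and 12.8 CPM in GMP, 17.9 and 19.4 in EoP and 3.82 and 1.64 in Eos. The other 8 summed to 6.17 and 10.6 CPM in GMP, 6.13 and 4.71 in EoP and 5.12 and 5.38 in Eos.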

How the data were processed

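RNA was measured in 6 libraries and H3K4me3 in 3. The authors' deposited RNA tables give a whole-number estimated count and an RPKM per RefSeq transcript. The estimator, the strand setting and any pooling other than that of the mice are not stated. The submitters' processing notes name the build mm10 and, with no role, Bowtie 1.0.0 and STAR 2.4.0c. The authors' deposited peak lists give, per the file headers, the pileup signal, −log10 p and q and fold enrichment of each summit, 1 list per library.

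Counts (expected counts, whole as deposited) were summed over all 31213 lines to 23471 genes. They were tested in R 4.3.3 with the edgeR 4.0.16 quasi-likelihood test, with TMM factors, its default expression filter and a single model of all 6 libraries in which only the stage was a term. That left 3 residual degrees of freedom, 14324 genes and a common dispersion of 0.0692. Calls are at a Benjamini-Hochberg adjusted p under 0.05 over all genes tested. A transcript fit used each transcript once. The method was checked on simulated data. Alternatives were DESeq2 1.42.0 size factors and Wald test, upper quartile factors, library size alone, limma-voom (limma 3.58.1), a minimum of 50 counts in 2 libraries, no filter, a block for the replicate number, the compared libraries only, transcripts counted once, limma on log2(RPKM + 0.5) (also 0.1, 1, and no filter) and each library left out.

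Replicate libraries differed by more than sampling noise (chi-square over its degrees of freedom 10.8 in GMP, 31.7 in EoP and 56.8 in Eos). Depth of the H3K4me3 libraries is unknown. A promoter peak is one the authors annotated to a promoter; overlap needed at least 1 base, with 50% as alternative. Promoter windows and motifs come from the RefSeq table of GRCm38.p6, whose coordinates are those of mm10. From each gene list, up to 4 called genes per comparison could be named, by size of change, if their libraries stood apart and the higher stage had a mean of 20 CPM or more, and of these the text gives a choice. The members, lists and tests were chosen with earlier results of these data known.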

Additional observations from a re-analysis of the deposited data

How the results depend on the processing

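The fall of Runx1 in Eos against EoP and GMP, and the rise of Cbfa2t3 in Eos against GMP, passed in all 21 alternative fits. Among the 21, the fit with transcripts counted once is no separate check for the members. It gave them the values of the model reported for EoP against GMP and for Eos against EoP. Other counts of members called moved. For EoP against GMP, 1 member became 0 with library size alone and 2 with no filter, the DESeq2 Wald test, limma-voom, only the compared libraries and each of the 4 RPKM fits, with 0 to 2 when a library was left out. For Eos against EoP, 2 became 1 with the crossed replicate block and with only the compared libraries, and 1 to 4 with a library left out. For the step difference, 1 became 0 with DESeq2 size factors, upper quartile factors, library size alone, at least 50 counts in 2 libraries and the replicate block, 2 with no filter and the crossed replicate block, 3 or 4 in the RPKM fits, and 0 to 2 with a library left out. Member transcripts called for EoP against GMP, 0, became 1 with the DESeq2 Wald test and limma-voom and 2 with only the compared libraries. Those for Eos against EoP, 2, became 0 with the replicate block and with only the compared libraries, and 0 to 2 with a library left out. Those for Eos against GMP, 2, became 4 with library size alone, 1 with the replicate block and 0 to 2 with a library left out. In EoP, 2 members kept a promoter peak at a −log10 q of at least 10. The cause of these moves was not tested.

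The values that changed sign passed no test in the model reported, though Cbfb Eos against GMP passed with library size alone (−0.60, adjusted p = 0.0464) and Cbfa2t3 Eos against EoP without Eos replicate 1 (0.67, 0.0207). Runx2 EoP against GMP became −0.06 with upper quartile factors and −0.34 with library size alone. Runx3 EoP against GMP became 0.05 with no filter, 0.28, 0.29, 0.26 and 0.28 in the RPKM fits and −0.08 to 0.26 with a library left out. Runx1 EoP against GMP became 0.07 in the RPKM fits and −0.29 to 0.12 with a library left out. Cbfa2t3 Eos against EoP became −0.04 in the RPKM fits. Cbfb Eos against GMP became 0.07 with DESeq2 size factors and with the DESeq2 Wald test, 0.01 with no filter, 0.12 with only the compared libraries and −0.09 to 0.18 with a library left out. The Runx2 step difference became −0.24, −0.25, −0.23 and −0.24 in the RPKM fits.

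Against TMM, library size alone shifted the median of all genes by −0.46 (EoP against GMP), −0.12 (Eos against EoP) and −0.58 (Eos against GMP); upper quartile factors shifted it by −0.18, −0.05 and −0.23, and the RPKM scale by 0.27, −0.47 and −0.20. The replicate numbers pair nothing by the labels, and deviations of same-numbered libraries correlated at −0.14 for EoP and GMP, −0.11 for Eos and EoP and 0.04 for Eos and GMP. With the replicate block, the Cbfb fall in Eos against EoP had an edgeR adjusted p = 0.0608 and the Cbfb step difference 0.0573; with the crossed replicate block, added after seeing the data, 1 member was called for Eos against EoP. With 2 libraries per stage, many calls were lost when 1 library was left out, which leaves its stage with 1. The peak lists allow no test.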

Other observations

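Genes whose pattern over the 6 libraries was most like that of each called member were ranked by the root mean square difference of centred log2(CPM + 1) among 7341 genes. For Runx1 they were Prkrir, Exosc2 and Saal1, at 0.08 each. For Runx2 they were Ap3b1 at 0.05 and Sec24b and Ncoa6 at 0.06. For Cbfb they were Mtmr1 at 0.04 and Smarca5, a chromatin remodelling ATPase, and Ccdc88a at 0.07. For Cbfa2t3 they were Ctnna1, for alpha-catenin, and D5Ertd579e at 0.04 and Osbpl2 at 0.07. Ctnna1 had 52.9 and 59.7 CPM in GMP, 115 and 120 in EoP and 140 and 198 in Eos, so its order of libraries was that of Cbfa2t3. These are descriptions over 6 libraries.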
